A study of Mus musculus with 17 samples.

Results

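Immediate early genes are the genes that a cell transcribes within minutes of a stimulus, without waiting for new protein. The 10 studied here are Fos, Fosb, Jun, Junb, Egr1, Arc, Npas4, Ier2, Atf3 and Dusp1. They were chosen by symbol, as 10 of the 20328 genes in the RNA-seq table, and were then looked up in the scRNA-seq, H3K27ac CUT&RUN and ATAC-seq tables of the same study. All 10 were listed in RNA-seq and in scRNA-seq, 4 had a region in CUT&RUN and 1 had a region in ATAC-seq.

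The mice were of the ICR strain with a wild-type genotype. The 6-OHDA-induced Parkinson's disease model received the neurotoxin 6-hydroxydopamine, at 10 µg/µl, on one side of the substantia nigra at 8 weeks of age, and the untreated arm of the model then received saline. In the NDST3-treated model, 2 µl of an adeno-associated virus carrying human NDST3 followed into the same nucleus 5 days after the lesion. NDST3 is an enzyme that modifies heparan sulfate, and the virus used the CMV promoter, which is not specific to a cell type. Animals of the whole study are described as adult females of 7 weeks, and a separate age at the sham procedure, or what that procedure was, is not given in the sources used here. The labels give the tissue only as brain. No time from injection to tissue collection is given for these libraries in the sources used here. The part of collection in the levels of these genes was not tested. The bulk RNA-seq libraries comprised 2 from sham mice, 1 from the 6-OHDA model and 2 from the NDST3-treated model, named below as sham, 6-OHDA and 6-OHDA+NDST3. Nothing in the labels says that libraries of a group came from separate animals, so p-values measure only the spread between these libraries.

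In most cells these genes are held poised and are switched on by signalling through mitogen-activated protein kinases, calcium and cAMP, which act on the factors SRF, ELK and CREB already bound at their promoters. Fos and Jun family proteins pair into the dimeric transcription factor AP-1, and Egr1 is a zinc finger factor induced by the same signals. Arc and Npas4 are known for their response to synaptic activity in neurons, whereas Atf3 is a bZIP factor of the stress and injury response and Dusp1 is a phosphatase that switches the kinases off again. In brain tissue they are used as markers of recent neuronal firing, of injury and, in dissociated cells, of the handling itself.

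Promoter windows from 250 bases before to 50 bases after the annotated start, from RefSeq on GRCm38.p6, were found for 7 of the 10 genes. Those of 4 genes that rose in the 6-OHDA library are printed here, together with those of Npas4 and Dusp1, which did not pass the test in it. Each reads 5′ to 3′ on the gene's own strand, and capitals mark matches to TGACG (the core of the cAMP response element, searched on both strands), to TGACNTCA (both strands, where TGACGTCA also holds TGACG) and to TATAAA (both strands).

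Fos promoter, chr12:85473640-85473939, + strand: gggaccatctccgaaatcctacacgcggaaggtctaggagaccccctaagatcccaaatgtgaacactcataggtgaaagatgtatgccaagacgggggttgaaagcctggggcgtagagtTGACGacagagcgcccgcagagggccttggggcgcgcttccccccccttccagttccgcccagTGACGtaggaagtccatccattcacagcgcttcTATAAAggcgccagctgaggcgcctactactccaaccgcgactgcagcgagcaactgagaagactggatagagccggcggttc
Jun promoter, chr4:95052173-95052472, - strand: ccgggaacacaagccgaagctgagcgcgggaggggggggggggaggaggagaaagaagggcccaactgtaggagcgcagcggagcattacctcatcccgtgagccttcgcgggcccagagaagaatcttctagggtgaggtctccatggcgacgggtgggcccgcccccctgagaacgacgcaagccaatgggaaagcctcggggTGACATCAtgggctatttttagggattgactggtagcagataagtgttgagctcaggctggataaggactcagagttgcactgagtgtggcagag
Junb promoter, chr8:84978699-84978998, - strand: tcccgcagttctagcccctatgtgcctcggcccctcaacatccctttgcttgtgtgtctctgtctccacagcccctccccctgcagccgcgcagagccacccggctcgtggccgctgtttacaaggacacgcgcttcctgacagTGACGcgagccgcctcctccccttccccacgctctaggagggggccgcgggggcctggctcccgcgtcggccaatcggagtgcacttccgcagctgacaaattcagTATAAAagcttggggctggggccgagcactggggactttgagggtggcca
Atf3 promoter, chr1:191183284-191183583, - strand: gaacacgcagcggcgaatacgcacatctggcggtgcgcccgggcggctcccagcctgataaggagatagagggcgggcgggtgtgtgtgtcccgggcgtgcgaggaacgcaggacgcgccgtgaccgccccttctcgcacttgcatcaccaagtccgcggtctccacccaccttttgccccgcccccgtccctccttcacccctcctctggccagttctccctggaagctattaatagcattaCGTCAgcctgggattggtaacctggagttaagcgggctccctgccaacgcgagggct
Npas4 promoter, chr19:4989922-4990221, - strand: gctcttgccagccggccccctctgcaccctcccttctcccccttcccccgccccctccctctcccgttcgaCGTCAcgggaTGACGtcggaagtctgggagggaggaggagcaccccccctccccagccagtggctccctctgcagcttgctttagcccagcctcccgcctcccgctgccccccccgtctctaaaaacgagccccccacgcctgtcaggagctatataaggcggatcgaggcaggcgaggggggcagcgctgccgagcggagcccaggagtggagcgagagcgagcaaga
Dusp1 promoter, chr17:26508423-26508722, - strand: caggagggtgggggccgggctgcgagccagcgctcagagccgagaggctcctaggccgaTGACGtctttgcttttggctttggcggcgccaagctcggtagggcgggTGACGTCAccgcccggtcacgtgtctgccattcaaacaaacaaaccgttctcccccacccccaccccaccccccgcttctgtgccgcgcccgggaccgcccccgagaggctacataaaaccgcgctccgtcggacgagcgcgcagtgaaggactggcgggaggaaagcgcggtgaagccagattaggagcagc

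TGACG was present in 6 of the 7 windows (Fos, Fosb, Junb, Npas4, Atf3 and Dusp1), against 20.8% of all 32851 promoter windows of this length in the table. It was also present in 43.8% of the 105 windows found for 76 of the 99 further genes described below. Dusp1 held 3 matches, Fos and Npas4 held 2 each, and Fosb, Junb and Atf3 held 1 each. In Dusp1, the matches that began 143 and 140 bases before the start overlap, as the 2 strands of 1 TGACGTCA. In Fos the pair began 129 and 66 bases before the start, and its TATAAA lay 33 bases before it. The Jun window had no TGACG but held TGACATCA, which began 45 bases before the start, and TGACNTCA was present in Jun and Dusp1 against 8.83% of all windows. Neither the AP-1 site TGANTCA nor the CArG box, the core of the serum response element, was found in any of the 7 windows. They were present in 7.81% and 1.63% of all windows, and in 5.71% and 6.67% of the 105 windows of the further genes. With shares this low, 7 windows are too few to show a lack of either site. Sequence outside the windows was not searched, and Egr1, Arc and Ier2 had no window. With its TGACGTCA counted once, Dusp1 held as many sites as Fos and Npas4. Dusp1 did not pass the test in any RNA-seq comparison below.

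Total counts ranged from 51003699 to 70533326 per RNA-seq library, and levels are given as CPM, the count as a share of its library's total scaled with TMM factors. The mouse gene Ndst3 had 14.1 and 21.0 CPM in sham, 7.96 CPM in 6-OHDA, and 23.3 and 13.5 CPM in 6-OHDA+NDST3. Reads were aligned to the mouse genome and the virus carried the human gene, so these values are not a measure of the delivered gene. Of the marker lists examined, all 8 general neuron markers fell in the 6-OHDA library and 6 of 7 microglia markers rose in it (edgeR, adjusted p under 0.05). Markers of cortical and hippocampal excitatory neurons summed to 17.7 and 39.3 CPM in sham, 177 CPM in 6-OHDA, and 8.10 and 119 CPM in 6-OHDA+NDST3, and their part in the levels of Egr1 and Arc was not tested. Choroid plexus markers summed to 1093 CPM in 6-OHDA+NDST3 replicate 2 and to at most 46.9 CPM in the other 4 libraries.

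The first comparison asked how the immediate early genes of the brain differed between the 6-OHDA model and sham. By the adjusted threshold 5 of the 10 rose and none fell. Atf3 was 11.0-fold and Junb 4.24-fold higher in the 6-OHDA library than in sham, Ier2 was 3.10-fold higher, and Fos and Jun were 1.80-fold and 1.74-fold higher. These 5 of 10 compare with 18.8% of all 19300 genes tested that rose by the same rule (adjusted p under 0.05 after Benjamini-Hochberg correction of the p-values of edgeR's quasi-likelihood test). By the study's threshold of a 2-fold change with a raw p under 0.05, 3 of 10 rose (Junb, Ier2 and Atf3), against 14.4% of all genes. The 6-OHDA library was the highest of the 5 for 7 of the 10 genes, as for 38.9% of all genes, and the lowest for 1, as for 37.9%. In bulk tissue, a change in the number of cells of a type and a change in RNA per cell cannot be told apart.

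**Figure D1:**
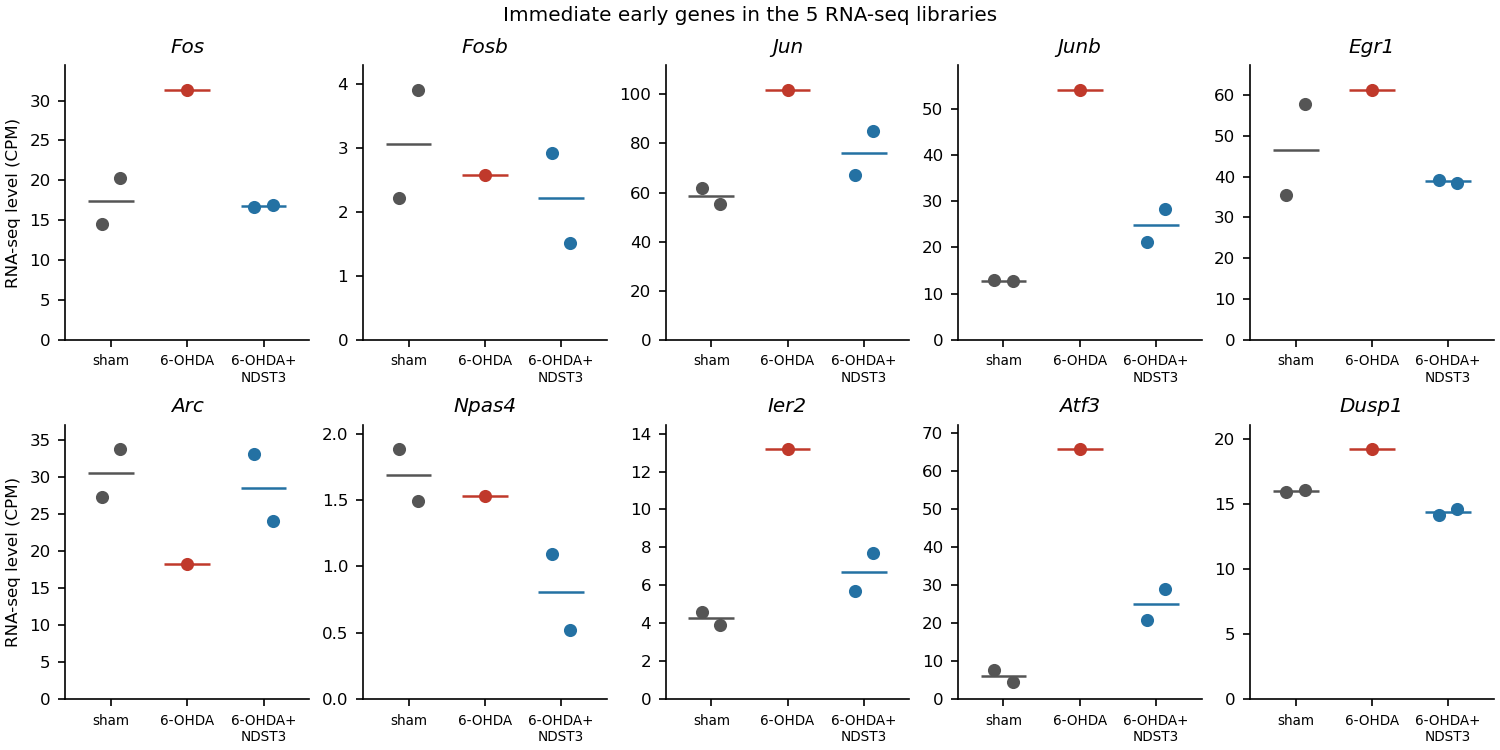
RNA-seq level (CPM, linear axis from 0) of each immediate early gene in the 5 libraries, with 1 point per library and a line at the group mean. The 6-OHDA library was the highest of the 5 for 7 genes and the lowest for Arc, and both 6-OHDA+NDST3 libraries lay between it and sham for Jun, Junb, Ier2 and Atf3.

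Among the partners of AP-1, Junb (NCBI Gene 16477, chromosome 8 of GRCm38, 84976909 to 84978748) is a Jun family protein that often restrains its relative c-Jun. It had 12.8 and 12.6 CPM in sham, 54.0 CPM in 6-OHDA, and 21.2 and 28.3 CPM in 6-OHDA+NDST3. The 3 groups did not overlap, and the sham libraries were almost equal. Between 6-OHDA and sham this made a log2 fold change of 2.08 (standard error, SE, 0.19, edgeR adjusted p = 0.00823).

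Jun (16476, chromosome 4, 95049036 to 95052222), which encodes c-Jun, had 61.9 and 55.3 CPM in sham, 102 CPM in 6-OHDA, and 67.2 and 85.0 CPM in 6-OHDA+NDST3. Again no groups overlapped, with the 6-OHDA library on top. Its log2 fold change of 0.80 passed the test (SE 0.17, edgeR adjusted p = 0.0232).

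Fos (14281, chromosome 12, 85473890 to 85477274), the prototype of the class, had 14.5 and 20.3 CPM in sham, 31.3 CPM in 6-OHDA, and 16.6 and 16.9 CPM in 6-OHDA+NDST3. The 6-OHDA library stood above all others, and the 6-OHDA+NDST3 libraries fell within the sham range. This rise of 0.85 in log2 terms passed the test (SE 0.22, edgeR adjusted p = 0.0386). Its relative Fosb (14282, chromosome 7, 19302696 to 19310118), whose stable splice form builds up with repeated stimulation, was scarce, at 2.21 and 3.90 CPM in sham and 2.58 CPM in 6-OHDA. The groups overlapped, and the log2 fold change of -0.25 had a SE of 0.56.

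Atf3 (11910, chromosome 1, 191170296 to 191183333) marks injured neurons and stressed glia and dimerizes with Jun proteins. It had 7.61 and 4.37 CPM in sham, 65.6 CPM in 6-OHDA, and 20.7 and 28.9 CPM in 6-OHDA+NDST3. No groups overlapped, and its log2 fold change of 3.46 (SE 0.37, edgeR adjusted p = 0.00823) was the largest of the 10. Ier2 (15936, chromosome 8, 84661331 to 84662852), a small nuclear protein of the early response, had 4.60 and 3.90 CPM in sham, 13.2 CPM in 6-OHDA, and 5.68 and 7.69 CPM in 6-OHDA+NDST3. It rose by 1.63 in log2 terms (SE 0.26, edgeR adjusted p = 0.0118).

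Neither gene tied to synaptic activity passed the test. Arc (11838, chromosome 15, 74669081 to 74672570), whose product takes part in removing glutamate receptors from synapses, had 27.3 and 33.7 CPM in sham, 18.2 CPM in 6-OHDA, and 33.2 and 24.04 CPM in 6-OHDA+NDST3. The 6-OHDA library was the lowest of the 5, with a log2 fold change of -0.74 against sham (SE 0.26, edgeR adjusted p = 0.0786), which did not pass the threshold. Over the alternative fits its adjusted p lay between 0.0223 and 0.274, under 0.05 in 5 of 14. Npas4 (225872, chromosome 19, 4984353 to 5003439), a neuron-specific factor induced by calcium entry, had only 31 to 103 counts per library and 0.52 to 1.88 CPM, so little could be detected at this depth (log2 fold change -0.14, SE 0.54).

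Egr1 (13653, chromosome 18, 34861207 to 34864956) had 35.6 and 57.7 CPM in sham and 61.2 CPM in 6-OHDA. The sham libraries lay far apart, and the log2 fold change of 0.39 (SE 0.28, edgeR adjusted p = 0.330) did not pass. Dusp1 (19252, chromosome 17, 26505591 to 26508472) had 15.9 and 16.1 CPM in sham, 19.2 CPM in 6-OHDA, and 14.1 and 14.6 CPM in 6-OHDA+NDST3. The groups were separate but close, and the log2 fold change of 0.26 (SE 0.14, edgeR adjusted p = 0.188) did not pass. Per length, on the FPKM scale, the order of the 10 genes also differed between groups. Jun (17.1 FPKM) and Egr1 (14.0 FPKM) had the highest means in sham, whereas Atf3 (31.3 FPKM), Jun (30.1 FPKM) and Junb (27.7 FPKM) led in the 6-OHDA library, and neighbours within that lead cannot be separated from a single library. Npas4 was last in every group.

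These calls rest on the spread of the sham and 6-OHDA+NDST3 pairs, because 6-OHDA has 1 library that is assumed to vary like the others. Without sham replicate 1, or without sham replicate 2, none of the 10 genes passed the adjusted threshold, and neither did any other gene. By the 2-fold rule, 3 and 4 of the 10 passed in those fits. Neuron markers summed to 6266 and 6904 CPM in sham and to 2427 CPM in 6-OHDA. Microglia markers summed to 380 and 290 CPM in sham and to 2303 CPM in 6-OHDA, and monocyte or macrophage markers to 192 and 36.7 CPM in sham and to 2871 CPM in 6-OHDA. Fibroblast or mural markers summed to 523 and 343 CPM in sham and to 1486 CPM in 6-OHDA. The part of these shifts in the changes of the immediate early genes was not tested.

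The second comparison asked what differed after the NDST3 virus. The 6-OHDA arm received saline, and no library came from mice given a virus without NDST3. Effects of the virus and of NDST3 thus cannot be told apart here. Of the 10 immediate early genes, 9 had a negative log2 fold change when 6-OHDA+NDST3 was set against 6-OHDA, and Arc had a positive one, but a single gene passed. Junb fell by 1.13 in log2 terms (SE 0.19, edgeR adjusted p = 0.0361), which is 1 of 10 against 6.59% of all genes that fell. By the 2-fold rule Junb and Atf3 fell, 2 of 10 against 8.37% of all genes. The comparison shares its 6-OHDA library with the first, so a high or low value there moves both in opposite directions, and the signs of the 2 comparisons are not independent.

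For Atf3 the log2 fold change stood at -1.40 (SE 0.36, edgeR adjusted p = 0.0586), for Ier2 at -0.98 (SE 0.26, adjusted p = 0.0631), for Fos at -0.90 (SE 0.22, adjusted p = 0.0538) and for Dusp1 at -0.42 (SE 0.13, adjusted p = 0.0925). These 4 did not pass the threshold. For 8 of the 10 genes both 6-OHDA+NDST3 libraries were below the 6-OHDA library, as for 43.2% of all genes. Egr1 was at 39.2 and 38.6 CPM in 6-OHDA+NDST3 against 61.2 CPM, a log2 fold change of -0.65 (SE 0.28, edgeR adjusted p = 0.161), and Jun was at -0.42 (SE 0.17, adjusted p = 0.146). Arc was higher in both 6-OHDA+NDST3 libraries than in 6-OHDA, with a log2 fold change of 0.65 (SE 0.25, edgeR adjusted p = 0.135). Fosb at 2.92 and 1.51 CPM and Npas4 at 1.09 and 0.52 CPM had SEs of 0.55 and 0.53.

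The call for Junb was lost without either sham library and without 6-OHDA+NDST3 replicate 1, although its log2 fold change stayed between -1.38 and -0.94 over all 14 alternative fits, and 9 of them gave an adjusted p under 0.05. Replicate 2, the library with the highest choroid plexus markers, lay closer to 6-OHDA than replicate 1 for Jun, Junb, Ier2 and Atf3. In that library the microglia markers summed to 1313 CPM, against 792 CPM in replicate 1 and 2303 CPM in 6-OHDA, and their part in the levels of the 4 genes was not tested.

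Against sham, none of the 10 genes passed the adjusted threshold in 6-OHDA+NDST3, and 0% of all genes did. At an unadjusted p under 0.05 there were 4 of the 10 genes (Jun, Junb, Ier2 and Atf3), all higher, against 14.2% of all genes. DESeq2 called 2 of 10 at an adjusted p under 0.05, beside 1048 of the 20328 genes listed. Atf3 alone also passed the 2-fold rule, at 24.8 ± 5.79 CPM (SD, n = 2) against 5.99 ± 2.29 CPM (SD, n = 2), a log2 fold change of 2.06 (SE 0.32, edgeR adjusted p = 0.152), where 4.78% of all genes were higher by that rule. Junb lay at 24.7 ± 4.997 CPM against 12.7 ± 0.13 CPM (SD, n = 2 each), a log2 fold change of 0.96 (SE 0.17, edgeR adjusted p = 0.158). Fos, at 16.7 ± 0.17 CPM against 17.4 ± 4.06 CPM (SD, n = 2 each), differed by less than the spread of the sham libraries, with a log2 fold change of -0.06 (SE 0.18).

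**Figure D2:**
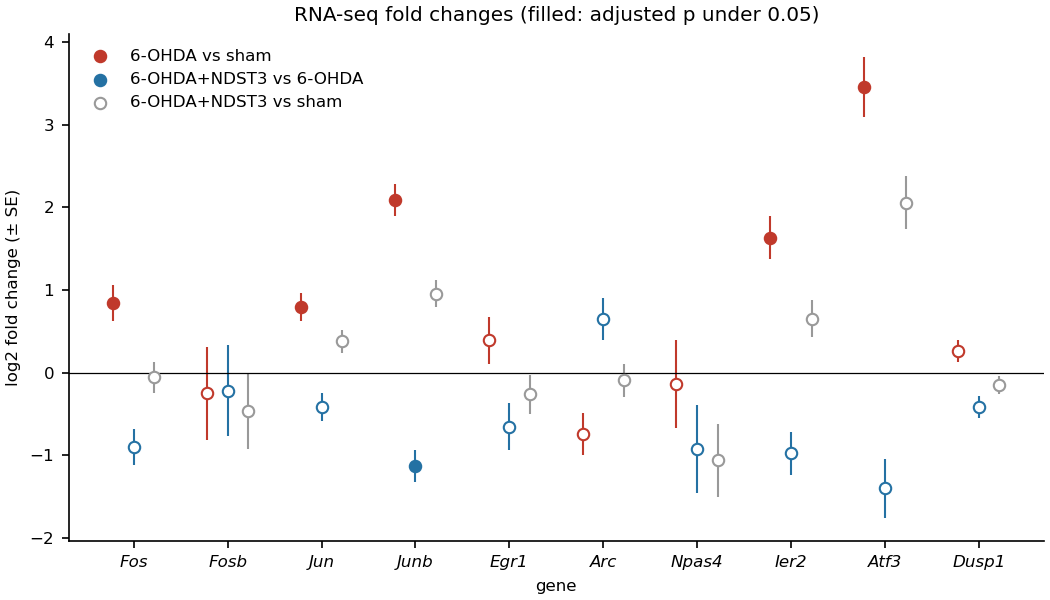
Log2 fold changes with standard errors for the 10 genes in the 3 RNA-seq comparisons, with filled points where the adjusted p was under 0.05. Filled points are Fos, Jun, Junb, Ier2 and Atf3 for 6-OHDA against sham and Junb for 6-OHDA+NDST3 against 6-OHDA.

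The rest of the early response was read from 99 further genes in 5 lists. Among 13 other AP-1 and bZIP genes, 9 rose and 0 fell between 6-OHDA and sham, beside 18.8% and 17.1% of all genes tested. Their median log2 fold change was 1.34, against -0.0025 over all genes tested. Cebpd and Cebpb, bZIP factors of the acute phase response, had log2 fold changes of 3.23 and 2.20 (SEs 0.35 and 0.31), and the small Maf protein gene Maff of 1.47 (SE 0.38). Cebpd went from 5.71 and 3.40 CPM in sham to 42.5 CPM in 6-OHDA, with 11.3 and 15.7 CPM in 6-OHDA+NDST3.

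Among 14 other EGR, NR4A and zinc finger early genes, 10 rose and 1 fell, beside 18.8% and 17.1% of all genes. The median was 1.1998. Egr2, a close relative of Egr1, was at 0.50 and 0.41 CPM in sham and 10.7 CPM in 6-OHDA, a log2 fold change of 4.55 (SE 0.54), where Egr1 itself had 0.39. Zfp36, whose product destabilizes cytokine transcripts, rose by 2.36 in log2 terms (SE 0.26). Nr4a2, which is an early gene and also the identity factor Nurr1 of dopaminergic neurons, went the other way, from 16.8 and 18.7 CPM to 3.19 CPM, and fell by 2.47 in log2 terms (SE 0.47).

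Of 20 feedback regulators, 9 rose and 2 fell, beside 18.8% and 17.1% of all genes, with a median of 1.06. Socs3, an inhibitor of cytokine receptor signalling, had a log2 change of 3.08 (SE 0.60), the ERK phosphatase Dusp6 of 1.83 (SE 0.21) and the stress gene Gadd45g of 1.64 (SE 0.27). Dusp6, at 20.9 and 20.7 CPM in sham and 73.6 CPM in 6-OHDA, rose, where its family member Dusp1 did not pass the test.

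Of 20 activity-regulated neuronal effectors, 4 rose and 5 fell, close to the 18.8% and 17.1% of all genes, and the median was -0.0033. The 3 largest changes were rises, in Baz1a, a chromatin remodelling subunit (log2 fold change 2.52, SE 0.37), Ptgs2, which encodes cyclooxygenase-2 (2.20, SE 0.41), and Inhba, a subunit of activin (1.54, SE 0.34). These 3 genes are not limited to neurons. In the scRNA-seq described below, Baz1a was highest in cluster 4 (mean 1.31), Ptgs2 in cluster 1 (0.63) and Inhba in cluster 5 (0.26). None of these clusters had the profile of neurons, and the cells behind the bulk rises were not tested. The 5 that fell, named after their values were seen, were the prohormone convertase gene Pcsk1 (-1.52, SE 0.14), the neurotrophin gene Bdnf (-1.26, SE 0.21), Sorcs3 (-1.24, SE 0.17), the granin gene Scg2 (-0.89, SE 0.14) and the synaptotagmin gene Syt4 (-0.66, SE 0.14). Of 32 upstream kinases and factors, 4 rose and 9 fell, with a median of -0.18. The ETS factor Elk3 rose by 2.30 (SE 0.24) and Mef2c by 1.64 (SE 0.30) on the log2 scale, whereas Grin1, the obligatory NMDA receptor subunit, fell by 1.59 (SE 0.21).

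Over the 5 lists, 36 of 99 genes rose and 17 fell in 6-OHDA against sham, beside 18.8% and 17.1% of all genes tested. When 6-OHDA+NDST3 was set against 6-OHDA, 8 rose and 14 fell, beside 9.06% and 6.59%, and the falls included 6 of 14 EGR, NR4A and zinc finger genes, 3 of 20 feedback regulators and 2 of 13 AP-1 and bZIP genes. Of the genes named above, Cebpd (log2 fold change -1.65), Zfp36 (-1.18), Dusp6 (-1.05), Ptgs2 (-2.96) and Elk3 (-1.22) fell in that comparison and Grin1 rose (1.30). Ptgs2 was at 1.19 and 1.21 CPM in 6-OHDA+NDST3 against 9.33 CPM in 6-OHDA and 2.66 and 1.42 CPM in sham. None of the 99 genes passed against sham in edgeR, with 15 of 99 passing in DESeq2, beside 1048 of the 20328 genes listed.

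**Figure D3:**
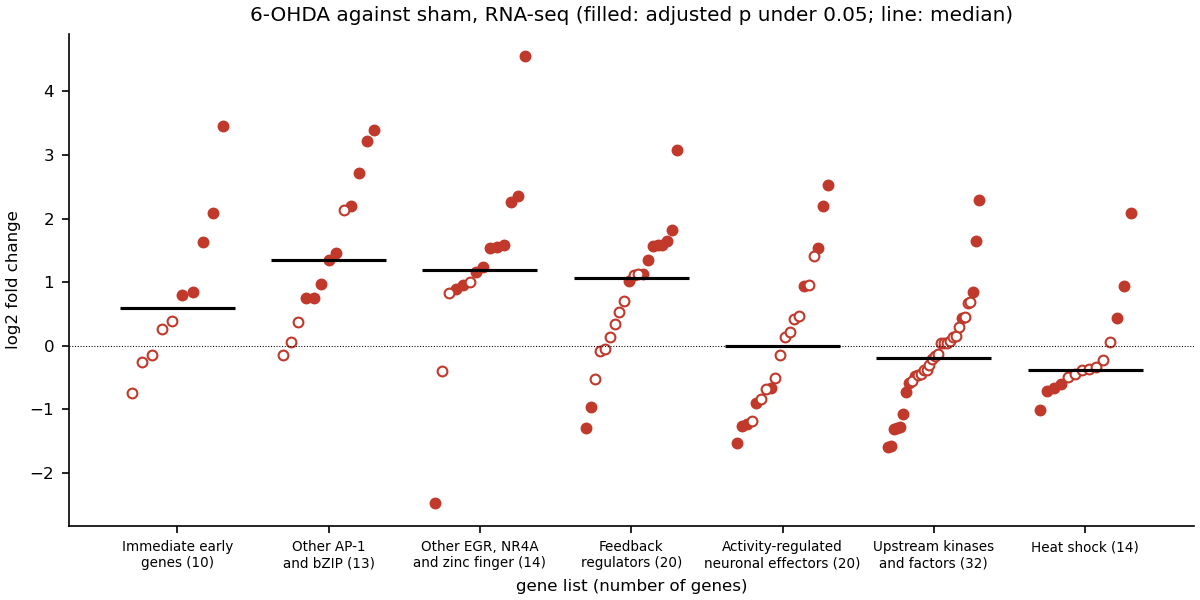
Log2 fold change between 6-OHDA and sham for each gene of the immediate early genes, the 5 further lists and the heat shock list, with filled points where the adjusted p was under 0.05 and a black line at the list median. Medians run from 1.34 in the other AP-1 and bZIP genes to -0.37 in the heat shock genes.

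Heat shock genes are induced by many of the same stresses as the immediate early genes. Of 14, 3 rose and 4 fell in 6-OHDA against sham, beside 18.8% and 17.1% of all genes, with a median of -0.37. The small chaperone Hspb1 (log2 fold change 2.09, SE 0.20) and the cochaperone Bag3 (0.94, SE 0.17) rose, and the large chaperone Hsph1 fell by 1.02 (SE 0.12).

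In scRNA-seq, the table gives the mean of each gene in 9 clusters of cells for the 6-OHDA and the 6-OHDA+NDST3 library, on a scale that fits the natural log of 1 plus the normalized count per cell. With 1 library per group there is no test. The study's methods name no doublet caller and state that cells with very many detected genes were left out to limit multiplets, and cluster means do not allow doublets to be counted. By markers, cluster 1 was neutrophil-like (6 of 6 markers highest there), cluster 4 T cell-like (8 of 8), cluster 6 microglia-like (6 of 7), cluster 7 endothelial-like (6 of 6) and cluster 9 B cell-like (6 of 6). Cluster 5 was fibroblast- or mural-like (5 of 8) and was led by the contractile genes Acta2, Tagln and Myl9. Clusters 2 (astrocyte, oligodendrocyte and choroid plexus markers), 3 (led by Apoe and Spp1) and 8 (led by Gm20186 and Il23r) were left unnamed. In cluster 8 the top gene led the next cluster by only 0.19 on the natural log scale, and all 8 T cell markers exceeded 0.1. No cluster had the profile of neurons, and the neuron marker list was highest in none beyond 1 gene each in clusters 2 and 7.

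The 2 genes tied to neuronal activity were nearly absent from these cells. Arc lay between 0 and 0.045 and Npas4 between 0 and 0.016 in all 18 columns. The other 8 exceeded 0.1 in every cluster, with the highest cluster means at 3.32 for Junb, 3.25 for Jun, 2.76 for Atf3, 2.20 for Egr1, 2.18 for Fos, 2.02 for Dusp1, 1.94 for Ier2 and 1.63 for Fosb.

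**Figure D4:**
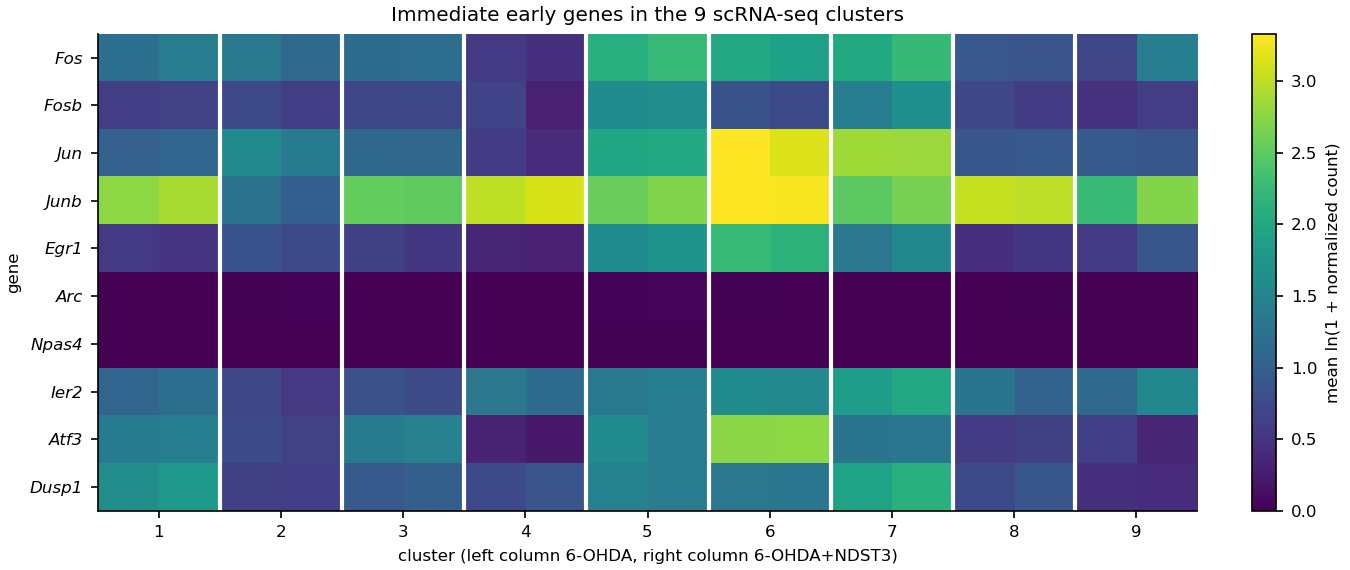
Mean level (natural log of 1 plus the normalized count, colour scale from 0) of the 10 genes in the 9 clusters, with the 6-OHDA library in the left and the 6-OHDA+NDST3 library in the right column of each cluster. Jun and Junb are brightest in cluster 6, above 3 in both libraries, and Arc and Npas4 are dark throughout.

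Microglia-like cluster 6 had the highest level of 4 of these 8 genes. In it Jun was at 3.33 in 6-OHDA and 3.16 in 6-OHDA+NDST3, Junb at 3.33 and 3.30, Egr1 at 2.25 and 2.15, and Atf3 at 2.75 and 2.76. Atf3 was among the 10 genes with the largest lead in this cluster over the next one, and its height there is given as a description. Endothelial-like cluster 7 was highest for Ier2 (1.86 and 2.01) and Dusp1 (1.93 and 2.11), and cluster 5 for Fos (2.105 and 2.264) and Fosb (1.61 and 1.65). T cell-like cluster 4 was the lowest of the 9 for 5 of the 8 genes, among them Jun at 0.59 and 0.43 and Atf3 at 0.32 and 0.23.

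Junb departed from the other genes. It was at 3.02 and 3.13 in cluster 4 and 3.04 and 2.997 in cluster 8, near its maximum in cells where Fos, Jun and Egr1 were low, and it was lowest in cluster 2, at 1.25 and 0.99. Across the 18 columns its Pearson r with the mean profile of the other 7 was 0.27, whereas Fos, Jun and Egr1 had 0.86, 0.85 and 0.84 (a description over 9 clusters that share 2 libraries). The 5 genes whose profile was most like the mean of the 8, of 4724 compared, were Atf4 (r = 0.91), Hspa1a (0.89), Stard9 (0.89), Sertad1 (0.89) and Clip1 (0.87).

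Between the libraries, 1 of 72 pairs of gene and cluster differed by 1 or more on the log2 scale, where 0.0469% of all pairs above 0.1 did. That pair was Fos in B cell-like cluster 9, at 0.70 in 6-OHDA and 1.43 in 6-OHDA+NDST3, a difference of 1.05. In the same cluster Junb went from 2.25 to 2.71, Ier2 from 1.15 to 1.56 and Egr1 from 0.56 to 0.89, while Atf3 went from 0.62 to 0.36. Cluster 9 was also the one where differences were widest in general, with 12.5% of its 6640 detected genes at 0.25 or more, and 5 of the 8 early genes among them.

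In endothelial-like cluster 7, 4 of the 8 genes differed by 0.25 or more (Fos, Fosb, Egr1 and Dusp1, all higher in 6-OHDA+NDST3), against 0.718% of the genes detected there. In cluster 2 it was 3 of 8 (Fos, Jun and Junb, all lower), against 1.14%. In T cell-like cluster 4 it was 1 of 8, against 7.01%, namely Fosb, at 0.67 in 6-OHDA and 0.31 in 6-OHDA+NDST3, a difference of -0.53. The other 5 clusters had at most 1 such gene each. By sign, the 8 genes were all lower in 6-OHDA+NDST3 in cluster 2, where 53.0% of detected genes were higher, and 7 of 8 were lower in cluster 6, where 55.9% were higher. In clusters 1 and 7, 7 of 8 were higher, as were 51.7% and 60.2% of detected genes. The signs were mixed in the remaining clusters, with 4 of 8 higher in clusters 3 and 8, 2 of 8 in cluster 4, 6 of 8 in cluster 5 and 5 of 8 in cluster 9. The median differences of the 8 genes ran from -0.21 in cluster 2 to 0.33 in cluster 9. The medians over all detected genes of a cluster lay between -0.03 and 0.01. Heat shock genes, which dissociation induces, were lower in 6-OHDA+NDST3 for 9 to 14 of 14 in every cluster, with 14 of 14 in clusters 2 and 6 and 12 of 14 in cluster 7, and the tissue had been dissociated with enzymes. The part of dissociation in the levels of the early genes was not tested.

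**Figure D5:**
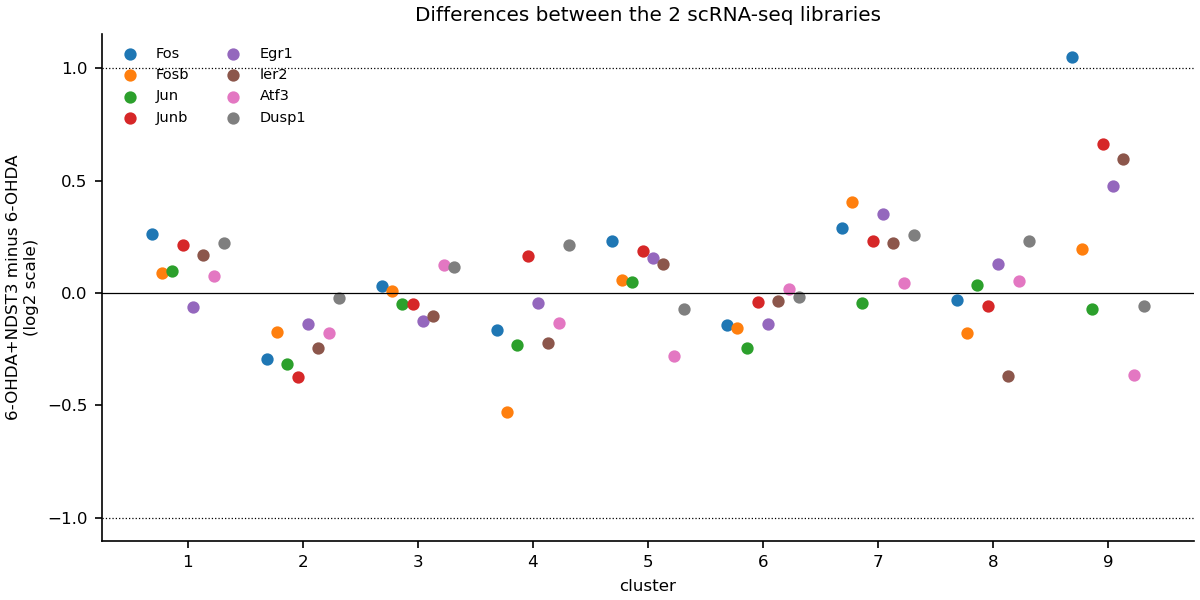
Difference between the 6-OHDA+NDST3 and the 6-OHDA library (log2 scale) for the 8 detected genes in each cluster, with dotted lines at 1 and -1. Fos in cluster 9 is the only point beyond a dotted line, and the points of cluster 2 all lie below 0.

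Chromatin was listed for few of these genes, within 1 kb of a start site. H3K27ac, the acetyl mark of active promoters and enhancers, was read by CUT&RUN as tag signal in 1 column per group that pools 2 libraries, without a test. Coordinates are those of the file, whose contig names belong to GRCm39 although mm10 is the build named by the study. Of the 11424 regions in the table, none had less signal in 6-OHDA+NDST3 than in 6-OHDA. The direction between these groups was thus fixed by how the table was made and is not read here. Such a selection can also shift the ratios of both groups to sham. Those ratios are therefore descriptions, given beside the values of all listed regions.

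Junb had 2 regions. The region chr8:85706105-85706205, at -778 bases from the start, had a signal of 35.25 in sham, 13.90 in 6-OHDA and 17.38 in 6-OHDA+NDST3. Its 6-OHDA to sham ratio of 0.41 (pseudocount of 1) was at least 2-fold lower, as in 4.48% of all regions, and sat at percentile 1.996 of them. The neighbouring region chr8:85706230-85706363 had 36.73, 23.85 and 27.33, a ratio of 0.66. At Junb the listed H3K27ac signal was lower in 6-OHDA than in sham while its RNA was higher. The part of the selection of regions in this difference was not tested.

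Jun had 28.16 in sham, 25.85 in 6-OHDA and 27.84 in 6-OHDA+NDST3 at chr4:94941135-94941235, at -726 bases, a ratio of 0.92 between 6-OHDA and sham. Atf3, the gene with the largest RNA change, was nearly flat, at 8.55, 8.95 and 9.94 at chr1:190916394-190916494, at -914 bases, a ratio of 1.04. Arc had 15.81, 13.40 and 26.80 at chr15:74544859-74544959, at -490 bases, a ratio of 0.86 between 6-OHDA and sham. The median 6-OHDA to sham ratio over all regions was 1.09, and the median 6-OHDA+NDST3 to sham ratio was 1.44, where Arc had 1.65, Atf3 1.15, Jun 0.99 and Junb 0.51 and 0.75.

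ATAC-seq, which reads open chromatin and had 1 library per group, listed 3582 regions, of which 1 belonged to these genes. Jun at chr4:94940813-94940913, at -404 bases, had a signal of 6.90 in sham, 9.50 in 6-OHDA and 9 in 6-OHDA+NDST3. The 6-OHDA to sham ratio of 1.33 stood beside a median of 1.08 over all regions and did not reach 2-fold, as 4.58% of regions did in that direction.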

How the data were processed

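The authors trimmed the RNA-seq reads, aligned them to mm10 and deposited read counts and FPKM per gene for 5 libraries. TPM values deposited beside them were not tested. The scRNA-seq means per cluster were deposited for 2 libraries under a header naming counts, and the values fit the natural log of 1 plus a count normalized by the authors; the sham library is not analysed here. The tag signal of CUT&RUN (2 libraries pooled per group) and ATAC-seq was deposited per region, with scaling not given in the sources used here. Counts were tested with edgeR 4.0.16 in R 4.3.3 (TMM factors, filterByExpr, quasi-likelihood test, Benjamini-Hochberg over 19300 genes, all 5 libraries), with the standard error as the log2 fold change divided by the square root of F. Alternatives were DESeq2 1.42.0, and limma 3.58.1 with log2 of FPKM plus 1 or plus 0.1. The fit was tested on simulated data. Signal ratios used a pseudocount of 1. A scRNA-seq gene counted as detected above 0.1, and differences of natural logs were converted to log2.

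Members and lists were chosen with earlier results of these data known. Named genes are all 10 members, up to 3 genes per further list with the largest change among those with an adjusted p under 0.05 and a mean CPM of at least 1, and the 5 genes of most similar scRNA-seq profile among those above 0.5 in a column. Python 3.11.15 was used outside R. Replicate numbers come from the titles and mark no shared animal or batch.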

Additional observations from a re-analysis of the deposited data

Results flagged for a closer look

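In scRNA-seq, 4 of the 10 genes differed between the 6-OHDA+NDST3 and 6-OHDA libraries by at least 0.25 on the log2 scale in opposite directions in different clusters. The difference between clusters was not tested, since each group has 1 library. How many of all genes meet the same rule was not counted. Of all genes detected in a cluster, 12.5% differed by 0.25 or more in cluster 9 and 7.01% in cluster 4. The shares were 4.07% in cluster 8, 1.14% in cluster 2 and 0.718% in cluster 7. Fos was higher by 1.05 in B cell-like cluster 9 and had a difference of -0.293 in cluster 2. Fosb was higher by 0.403 in endothelial-like cluster 7 and had -0.527 in T cell-like cluster 4. Junb was higher by 0.665 in cluster 9 and had -0.374 in cluster 2. Ier2 was higher by 0.598 in cluster 9 and had -0.37 in cluster 8.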

How the results depend on the processing

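Depth did not limit the abundant genes, but Npas4 and Fosb had under 300 counts in every library, and the single 6-OHDA library leaves 2 residual degrees of freedom in the fit. The log2 fold changes of Junb, Atf3, Ier2, Jun and Fos between 6-OHDA and sham kept their sign in all 14 alternative fits, with adjusted p under 0.05 in 12, 12, 11, 11 and 10 of them.

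With one library left out in turn, the number of the 10 genes with an adjusted p under 0.05 lay between 0 and 6 for 6-OHDA against sham, 0 and 1 for 6-OHDA+NDST3 against 6-OHDA, and 0 and 0 for 6-OHDA+NDST3 against sham. By the 2-fold rule it lay between 3 and 4, 2 and 3, and 1 and 3. Of the 99 further genes, 0 to 58, 0 to 33 and 0 to 2 passed by adjusted p, and 40 to 44, 16 to 36 and 4 to 18 by the 2-fold rule. Of all genes, 0 to 7140, 0 to 3163 and 0 to 111 passed by adjusted p, and 3605 to 4851, 2304 to 3621 and 746 to 1733 by the 2-fold rule. The zeros of the first 2 comparisons came without sham replicate 1 and without sham replicate 2, and for 6-OHDA+NDST3 against 6-OHDA the 0 of 10 and 0 of 99 came without 6-OHDA+NDST3 replicate 1 too, where 1 gene of all passed.

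DESeq2 gave 4 of the 10 genes, 44 of 99 and 5262 of all genes for 6-OHDA+NDST3 against 6-OHDA, and 2, 15 and 1048 against sham. With only the 2 groups compared, 6-OHDA+NDST3 against 6-OHDA gave 0 of 10, 0 of 99 and 0 of all genes by adjusted p. The filter of CPM of at least 1 in 2 libraries gave 2 of 10 there. With limma on log2(FPKM + 1), 2683 genes passed the 2-fold rule for 6-OHDA against sham. That fit gave 14 of 99 by adjusted p, and 12 of 99 and 1384 of all genes by the 2-fold rule, for 6-OHDA+NDST3 against 6-OHDA, and 4 of 99 and 372 of all genes by the 2-fold rule against sham. On log2(FPKM + 0.1), 12 of 99 passed for 6-OHDA+NDST3 against 6-OHDA. The causes of these shifts were not tested.

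Same-numbered sham and 6-OHDA+NDST3 libraries did not deviate together (r = -0.337 over 19300 genes, 2 pairs), and a replicate block on these numbers gave 2 of 10, 18 of 99 and 1796 of all genes by adjusted p for 6-OHDA against sham. For 6-OHDA+NDST3 against 6-OHDA the replicate block gave 0 of 10, 0 of 99 and 0 of all genes by adjusted p, and 4 of 10 by the 2-fold rule. A crossed replicate block, chosen after seeing the data, gave 5 of 10, 39 of 99 and 4795 of all genes by adjusted p and 17 of 99 by the 2-fold rule for 6-OHDA+NDST3 against 6-OHDA, and 2 of 10, 13 of 99 and 1194 of all genes by adjusted p and 2 of 10 by the 2-fold rule against sham.

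Signs of uncalled genes turned in a few fits. Between 6-OHDA and sham, Fosb had a log2 fold change of 0.25 with the crossed replicate block. Leaving out one library at a time gave log2 fold changes of -0.60 to 0.22 for Fosb and -0.30 to 0.035 for Npas4 in that comparison, and of -0.77 to 0.15 for Fosb between 6-OHDA+NDST3 and 6-OHDA. Between 6-OHDA+NDST3 and sham the ranges were -0.28 to 0.20 for Fos, -0.57 to 0.13 for Egr1 and -0.345 to 0.10 for Arc. The sign turned without sham replicate 2 for Fosb, Fos, Egr1 and Arc, without sham replicate 1 for Npas4, and without 6-OHDA+NDST3 replicate 2 for Fosb and Arc.

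In scRNA-seq, 4 pairs of gene and cluster reached 0.5 and 16 reached 0.25 on the log2 scale, and 2 reached 2-fold as a ratio of back-transformed means. At 1.5-fold, CUT&RUN gave 2 regions for 6-OHDA against sham, 1 for 6-OHDA+NDST3 against 6-OHDA, a direction that the table itself fixes and that is not read, and 2 for 6-OHDA+NDST3 against sham, where 1 reached 2-fold with a pseudocount of 0.1 and 2 with signal divided by the group median.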
